A study of Mus musculus with 8 samples.

Results

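The expression of 37 DNA damage repair genes was examined in bone marrow multipotent progenitors (MPPs) of mice that carry the NUP98-HOXA10hd fusion (NA) or are wild type (WT). The genes were taken by name from a list of repair factors and not by their values, but with earlier results of these data known. All 37 were found among the 37980 Ensembl gene entries of the expression table by their GENCODE M21 symbols. They fall into 8 groups by role: damage signalling kinases (4 genes), the MRN complex (3), homologous recombination (7), non-homologous end joining (4), the Fanconi anaemia pathway (6), mismatch repair (2), nucleotide excision repair (7), and base excision and single-strand break repair (4). A further 111 genes of the same pathways, translesion synthesis and direct reversal were listed from general knowledge and serve as the wider background.

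There were 4 NA MPP and 4 WT MPP libraries, named here by group and number. Both groups were C57BL/6 bone marrow cells gated as Lin-CD48-ckit+Sca1+CD135+CD150-, with 1000 sorted cells a library. NA mice were NA LSL/+; Vav-Cre, in which Cre under the Vav promoter, active in blood cells, releases the Nup98-Hoxa10hd fusion gene from the Rosa26 locus. WT cells came from mice without the fusion. The paper names age-matched WT mice for its cell cycle assay, and gives neither age matching nor the CD45 allele for the WT mice of these libraries. The ages, the donor sex and the number of animals behind each aliquot are not given in the sources used here, nor whether the 4 libraries of a group came from separate mice, so that p-values measure only the spread between these libraries, which may be technical. The question was which repair transcripts differ in MPPs that express the fusion.

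A cell mends each kind of DNA lesion by its own pathway. Breaks across both strands are sensed by the MRN complex, which activates the kinase ATM, and are either copied back from the sister chromatid by homologous recombination or rejoined directly by non-homologous end joining. Bulky lesions such as ultraviolet photoproducts are cut out by nucleotide excision repair, small base lesions by base excision repair, replication errors by mismatch repair, and crosslinks between strands are unhooked with the help of the Fanconi anaemia proteins. Haematopoietic stem and progenitor cells depend on several of these routes, and homologous recombination is used mainly after DNA replication, when a sister chromatid is at hand.

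The deposited values are normalised counts, that is, RSEM expected counts divided by 1 size factor per library, and each library rests on 3876893 to 4916987 estimated reads. NA4, WT2 and WT3 were shallower than the other 5 libraries. NA4 and WT4 stood apart in another way: each lay between the lowest and the highest library of its group at 67.7% and 75.2% of 11451 genes, where 4 interchangeable libraries would give 50% and the other 6 libraries gave 38.2% to 50.2%. Each called repair gene named below is therefore also given without the fourth library of both groups. Hoxa10, whose homeodomain forms part of the fusion, was at 298 to 371 normalised counts in NA and 129.6 to 149 in WT MPPs. Kit, Flt3 (CD135) and Ly6a (Sca1) of the MPP gate, and Cd34, which is not in it, were all above 1000 normalised counts in every library. Of 6 tested gate and stem cell markers 2 were called lower in NA MPPs without overlap: Cd48, at 12.2 to 22.4 in NA and 34.2 to 83.8 in WT libraries (log2 difference -1.58, limma adjusted p = 0.00712), and Ly6a, at 1221 to 1408 and 1482 to 1614 (-0.28, limma adjusted p = 0.0257). Of 53 markers of other blood and stromal cells, 12 were at 0 in every library, including Elane, Ly6g, Pax5, Cd3e and Cdh5, and of the 20 tested none was called higher and 3 were called lower in NA MPPs (Hbb-bt, Mpo and Prtn3). Xist lay between 869 and 1285 in WT and between 0.94 and 2.80 in NA libraries, and the Y-linked Ddx3y between 281 and 668 in NA and at or under 0.888 in WT, so that donor sex and genotype cannot be told apart. Immediate early transcripts summed to 41413 to 46930 in NA and 7601 to 15909 in WT libraries, and the part of this response in the results below was not tested. In bulk samples, fewer cells of a type and less RNA per cell cannot be told apart either.

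A gene was tested when 4 or more of the 8 libraries held 10 or more normalised counts of it, which 33 of the 37 repair genes did. By limma with Benjamini-Hochberg adjustment over all 11451 genes tested, 5 of the 33 were called at an adjusted p below 0.05. Rad54l rose in NA MPPs, and Prkdc, Parp1, Ddb1 and Xpc fell. Over all genes tested 17.9% were called, with 10.1% higher and 7.87% lower in NA MPPs, so that 5 of 33 in either direction, 1 of 33 higher and 4 of 33 lower do not set the listed genes apart. Counts of calls in the other lists below are to be read against the same shares. Likewise the 4 NA and 4 WT values did not overlap for 6 of the 33 genes, where 22.0% of all genes tested did not overlap. The median log2 difference (NA minus WT) was -0.01 over the 33 genes and -0.01 over all genes tested, and 17 of the 33 differences were negative. The repair genes therefore did not shift as one block, and what follows describes which pathways the individual differences lie in.

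**Figure D1:**
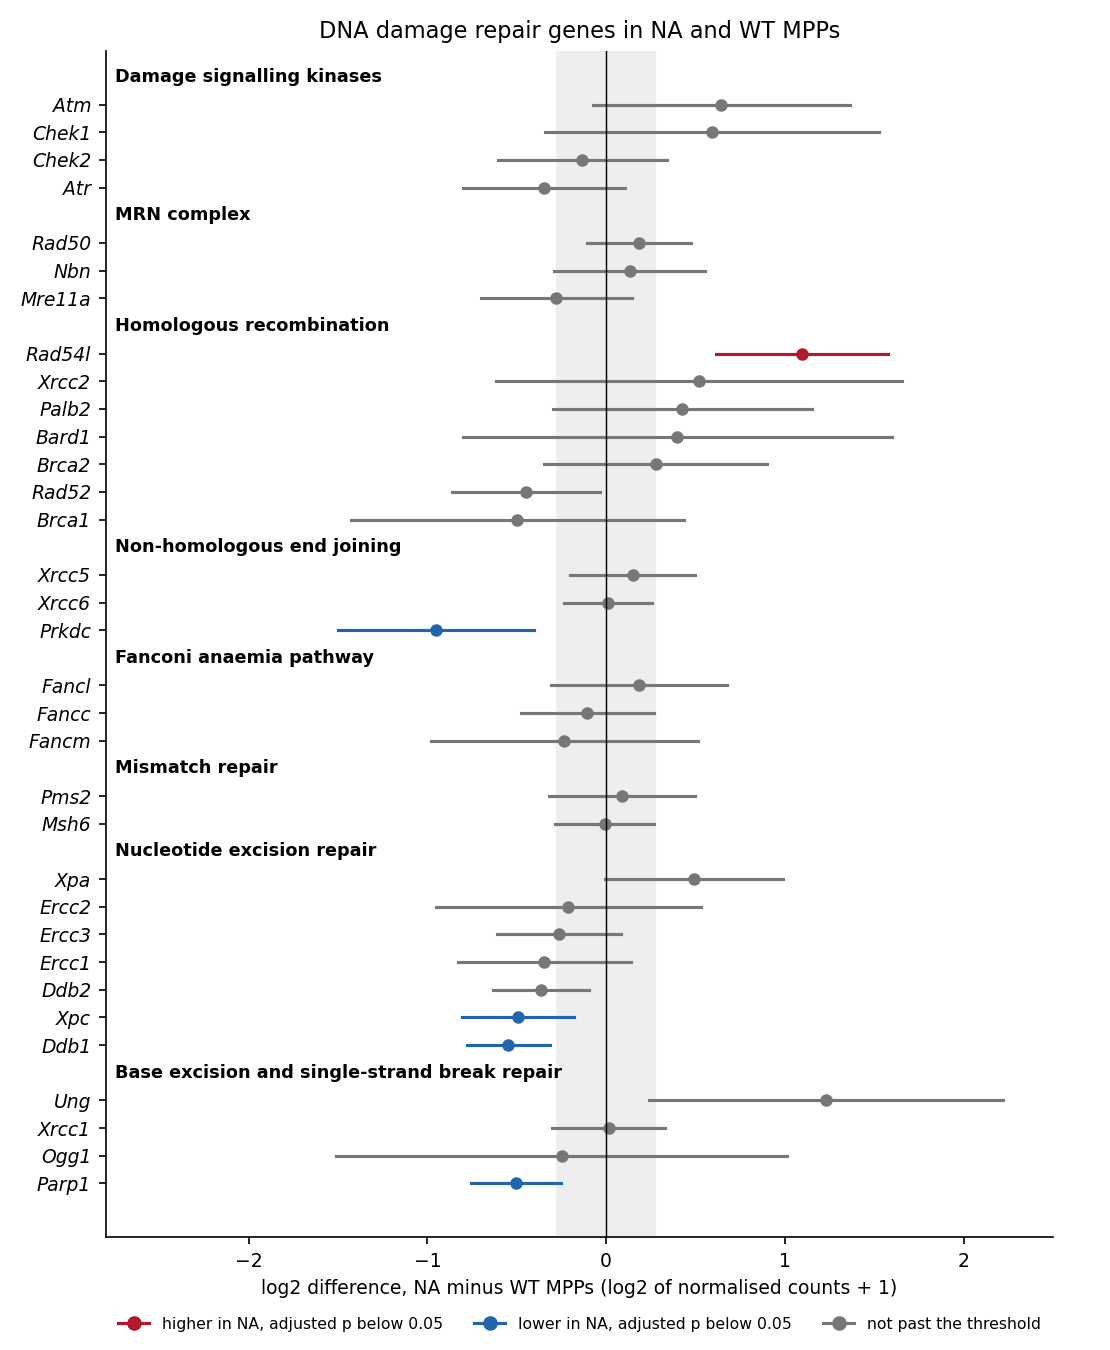
Log2 difference between NA and WT MPPs (horizontal axis, log2 of normalised counts + 1) for the 33 tested repair genes, grouped by pathway, with 95% confidence intervals from limma as bars; the grey band spans the quartiles of all 11451 genes tested. Rad54l (1.10) lies to the right in red, and Prkdc (-0.95), Ddb1 (-0.55), Parp1 (-0.51) and Xpc (-0.49) lie to the left in blue, while the other intervals are grey.

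The levels of the 37 genes covered a wide range, which sets what could be detected. Per kilobase of the longest coding transcript, Xrcc6 was the most abundant over all libraries at 140.2 normalised counts per kb, followed by Ddb1 (124), Ddb2 (113), Msh6 (109.9), Parp1 (105) and Xpc (99.3). At the low end were Lig4 (0.986), Fanca (1.68), Fanci (2.07) and Fancd2 (2.58), the 4 genes that did not pass the filter. The 23 tested genes that averaged 50 or more normalised counts had standard errors of the log2 difference between 0.11 and 0.29 and include all 5 called genes. The other 10 had standard errors between 0.34 and 0.59 with no call, so that a difference of the size seen for Ddb1 or Parp1 would not have been detectable at their depth.

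Homologous recombination held the only listed gene that was called higher. Rad54l (ENSMUSG00000028702, mm10 chr4:116094264-116123690, minus strand) encodes a motor protein of the SWI2/SNF2 type that acts during strand invasion. Its values were 187, 164, 161 and 188 normalised counts in NA1 to NA4 and 71.9, 126, 53.5 and 88.8 in WT1 to WT4. All 4 NA libraries were above the highest WT library, WT2. The group means were 175 ± 14.6 and 85 ± 30.7 (SD, n = 4 each), a ratio of 2.06, with a log2 difference of 1.10 (95% confidence interval 0.61 to 1.58, limma adjusted p = 0.00465). The difference was 1.08 among the 5 deeper libraries and 1.18 among the 3 shallower ones, of which NA4 is the only NA library. Without the fourth libraries it was 1.10, with a limma adjusted p of 0.0517. Over 15.4% of its exon bases (1184 bases) Rad54l lies opposite to exons of Lrrc41, which was itself at 14.2 to 28.0 in NA and 1.14 to 6.21 in WT libraries (log2 difference 1.97, limma adjusted p = 0.026), and since strand use in the counting is not stated, reads of the shared stretch cannot be told apart.

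The other 6 recombination genes gave no call. The strand exchange mediators Brca2 and Palb2, which act before strand invasion, were at 35.1 to 93.4 and 18.1 to 57.7 normalised counts over all 8 libraries, with log2 differences of 0.28 and 0.43. Brca1, which acts earlier in the same route, was low, at 9.33, 29.1, 24.9 and 11.8 in NA1 to NA4 and 29.3, 14.7, 23.9 and 33.7 in WT1 to WT4 (log2 difference -0.50, limma adjusted p = 0.457). The groups overlapped. Its partner Bard1 (0.40, from 4.55 to 42.5) and Xrcc2 (0.52, from 9.11 to 73.3) were similarly scattered. Rad52, an annealing factor, differed in the direction opposite to Rad54l, at 78.0 to 136 in NA and 117 to 156 in WT libraries (log2 difference -0.45, limma adjusted p = 0.124), and passed only when NA1 was left out (limma adjusted p = 0.0355). The summed counts of the 7 genes were 455 to 509 in NA and 330.2 to 429 in WT libraries, without overlap, and the mean difference of these sums, 84.5, was no larger than that of Rad54l alone, 89.7. Beside this, of 20 tested genes of G2 and M phase, 5 were called higher (Aurkb, Plk1, Cenpf, Kif23 and Nusap1; 10.1% of all genes tested were) with a summed level of 1462 to 1865 in NA and 749 to 1372 in WT libraries. Of 25 S phase genes, 2 were called higher and 1 lower, and their sums of 6507 to 7232 in NA and 6488 to 7453 in WT overlapped. The paper's own flow cytometry of the cell cycle found NA MPPs to be more quiescent than control MPPs. Its RNA-seq of MPPs gave cell cycle regulation among the roles of the upregulated genes, and a cell cycle gene set as enriched. Selected genes of that set were checked there by real-time PCR. The part of cell cycle position in the Rad54l difference was not tested.

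Among the other genes of the recombination pathway, 1 of 20 tested was called higher and 3 lower. Sfr1 and Swi5, which encode the subunits of a complex that stimulates strand exchange, went in opposite directions. Sfr1 was at 945, 1350, 1351 and 1357 normalised counts in NA1 to NA4 and 845, 814, 896 and 925 in WT1 to WT4 (log2 difference 0.51, limma adjusted p = 0.00803), and Swi5 was at 105 to 156 in NA and 203 to 242 in WT libraries (-0.70, limma adjusted p = 0.00729). Without the fourth libraries neither passed (limma adjusted p = 0.0679 and 0.0746). Mus81, the catalytic subunit of a nuclease that resolves joint molecules, fell from 101 to 142 in WT to 43.7 to 48.9 in NA libraries (-1.23, limma adjusted p = 0.000886), and passed without the fourth libraries (0.0254). Slx4, the scaffold that binds the same nuclease, was also called lower (-0.94, limma adjusted p = 0.0367), although WT3 at 44.4 lay inside the NA range of 30.7 to 48.5. It lost the call under 9 of 21 alternatives, among them those without NA2, NA4, WT1, WT2 or WT4 (limma adjusted p from 0.0632 to 0.12) and the one without NA4 and WT4 together (-0.71, 0.296). Eme1, the partner subunit of Mus81 and named after its values were seen, was not called (0.10, limma adjusted p = 0.825). Its values were 36.6 to 70.2 in NA and 46.2 to 57.8 in WT libraries.

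**Figure D2:**
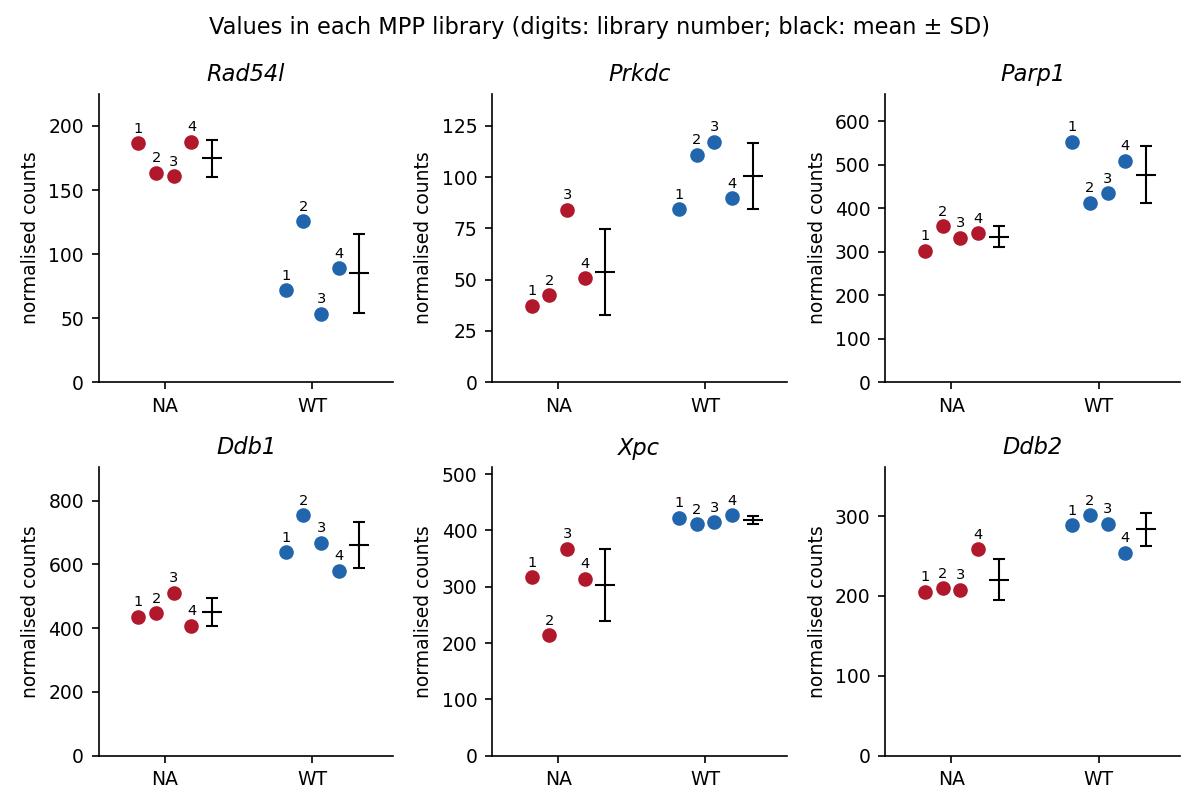
Normalised counts of the 5 called repair genes and Ddb2 in each library (vertical axes start at 0), with NA in red, WT in blue, the library number above each point, and the mean with SD in black. The groups do not overlap for Rad54l, Prkdc, Parp1, Ddb1 and Xpc, while NA4 at 259 lies within the WT range for Ddb2.

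In non-homologous end joining the kinase subunit fell while the Ku genes gave no call. Prkdc (ENSMUSG00000022672, mm10 chr16:15637866-15842235, plus strand) encodes DNA-PKcs, the large kinase that Ku recruits to broken ends and whose loss causes severe combined immunodeficiency in mice. Its values were 37.3, 42.3, 84.0 and 50.8 normalised counts in NA1 to NA4 and 84.3, 111, 117 and 89.7 in WT1 to WT4. The highest NA library, NA3, reached just under the lowest WT library, WT1. The means were 53.6 ± 21.02 and 101 ± 16.02 (SD, n = 4 each), a ratio of 0.533, with a log2 difference of -0.95 (95% confidence interval -1.50 to -0.40, limma adjusted p = 0.0205). It no longer passed without NA2 (limma adjusted p = 0.0547), NA4 (0.0577) or WT3 (0.0553), while the difference stayed between -0.86 and -0.95 in these fits, nor without the fourth libraries (-1.0, limma adjusted p = 0.115). Prkdc also missed the threshold without a low-value filter (limma adjusted p = 0.0551).

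Xrcc6, which encodes the Ku70 subunit, was at 424 to 561 normalised counts in NA and 410.1 to 503 in WT libraries (log2 difference 0.01, 95% confidence interval -0.24 to 0.26). Xrcc5, the Ku80 gene, was at 183, 196, 162 and 202 in NA1 to NA4 and 201, 130.2, 194 and 154 in WT1 to WT4 (0.15, 95% confidence interval -0.20 to 0.50). Both sets of values overlapped between the groups. Lig4, the ligase of this route, did not pass the filter, with 0 to 7.52 in NA and 1.13 to 7.99 in WT libraries. The log2 ratio of Prkdc to Xrcc6 was -3.47 to -2.73 in NA and -2.36 to -2.04 in WT libraries, and that of Prkdc to Xrcc5 was -2.26 to -0.94 and -1.24 to -0.23. These and the other ratios between partner genes were chosen after the values were seen. Over the 7 ratios, two-sided exact permutation tests gave adjusted p from 0.0667 to 0.229, so that none passed, and the smallest unadjusted p that 4 against 4 libraries allow is 0.0286.

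Of 8 other end-joining genes tested, 1 was called higher and 2 lower. Dntt, the template-independent polymerase that adds bases at antigen receptor junctions in lymphoid progenitors, was at 27.1, 54.5, 30.5 and 40.2 normalised counts in NA1 to NA4 and 242, 194, 223 and 210.4 in WT1 to WT4 (log2 difference -2.53, limma adjusted p = 5.47e-06). No NA library reached a level near that of any WT library, and the call held without the fourth libraries (limma adjusted p = 0.000284). Poll, a gap-filling polymerase of the same family, was called lower (-0.71, limma adjusted p = 0.048) with overlapping values of 42.5 to 72.4 in NA and 67.5 to 104 in WT. It lost the call under 12 of 21 alternatives, among them those without NA1, NA3, NA4, WT2, WT3 or WT4 (limma adjusted p from 0.066 to 0.148), with the GC trend removed (0.115) and without the fourth libraries (0.284). Aplf, a scaffold that binds Ku and XRCC4, was called higher, at 52.6 to 75.6 in NA and 18.1 to 34.2 in WT libraries (1.31, limma adjusted p = 0.00509), but not without the fourth libraries (0.0718).

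Nucleotide excision repair held 2 of the 4 listed genes that fell, and both belong to the step that first recognises a lesion. Ddb1 (ENSMUSG00000024740, mm10 chr19:10605327-10629819, plus strand) encodes a subunit of the ultraviolet damage sensor and adaptor of the CUL4 ubiquitin ligases. Its values were 436, 447, 511 and 407 normalised counts in NA1 to NA4 and 637, 754, 667 and 579.7 in WT1 to WT4. The groups were clearly apart, with NA3 the highest NA and WT4 the lowest WT library. The means were 450.4 ± 43.5 and 660 ± 72.8 (SD, n = 4 each), a ratio of 0.683, with a log2 difference of -0.55 (95% confidence interval -0.78 to -0.32, limma adjusted p = 0.00373). Ddb1 was the one listed gene that passed under every alternative run, including without the fourth libraries (-0.56, limma adjusted p = 0.0309). The difference was -0.39 among the deeper and -0.80 among the shallower libraries, of which NA4 is the only NA library.

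Xpc (ENSMUSG00000030094, mm10 chr6:91489305-91515888, minus strand), the sensor that starts repair across the whole genome, was at 316, 213, 367 and 314 normalised counts in NA1 to NA4 and 423, 411, 414 and 427 in WT1 to WT4. The WT libraries lay close together and above all NA libraries, of which NA2 was the lowest. The means were 303 ± 64.5 and 419 ± 7.32 (SD, n = 4 each), with a log2 difference of -0.49 (95% confidence interval -0.80 to -0.18, limma adjusted p = 0.0309). This call was the least stable of the 5: it was lost when any library other than NA1 or NA3 was removed, with limma adjusted p between 0.0528 and 0.0814, and also with the depth class as a covariate (0.0555) or without the fourth libraries (-0.51, limma adjusted p = 0.15). The call was lost as well without a low-value filter (limma adjusted p = 0.0766) and without a variance trend (0.0859). Without NA2 the difference was -0.33.

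Ddb2, which binds DDB1 to form the sensor and is a known p53 target, was at 205, 209.6, 208 and 259 normalised counts in NA1 to NA4 and 289, 301, 290.3 and 254 in WT1 to WT4. NA4 alone reached into the WT range, and the log2 difference of -0.37 missed the threshold (limma adjusted p = 0.0572). It passed with scaling by total counts and with the GC trend removed. The log2 ratio of Ddb1 to Ddb2 was 1.08, 1.09, 1.29 and 0.65 in NA1 to NA4 and 1.14 to 1.32 in WT libraries, so that the genes of this pair kept a similar proportion in all libraries but NA4. Over 23.8% of its exon bases Ddb2 lies opposite to Acp2, which was at 62.6 to 97.1 in NA and 75.5 to 101 in WT libraries.

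The later steps of nucleotide excision repair gave no call among the listed genes. Xpa, which verifies the lesion, differed in the other direction, at 98.0, 99.6, 138 and 82.7 normalised counts in NA1 to NA4 and 86.1, 48.7, 84.3 and 79.0 in WT1 to WT4 (log2 difference 0.49, limma adjusted p = 0.157). Ercc3 and Ercc2, the helicases of TFIIH, and Ercc1, a subunit of the nuclease that cuts 5′ of the lesion, had log2 differences of -0.26, -0.21 and -0.35. Their values ranged from 125 to 195 for Ercc3, from 14.8 to 30.7 for Ercc2 and from 43.7 to 88.8 for Ercc1, with overlap between the groups in each case. In all, 6 of the 7 listed genes had a negative difference, with a median of -0.35. The summed counts of the 7 were 1240 to 1435 in NA and 1615 to 1763 in WT libraries. Ddb1, Xpc and Ddb2 made up most of this gap, with means of 450.4, 303 and 220 in NA and 660, 419 and 283 in WT. The means of Ercc3, Ercc1, Ercc2 and Xpa were 149, 55.7, 23.2 and 104 in NA and 177, 71.2, 26.8 and 74.5 in WT. The 19 other genes of the pathway had a median of 0.04, with 7 negative differences. Of these, 2 were called higher and none lower: Gtf2h3, a core subunit of TFIIH, at 116 to 139 in NA and 57.7 to 78.6 in WT (0.92, limma adjusted p = 0.00347), and Uvssa, which acts where RNA polymerase stalls at a lesion, at 146 to 189 in NA and 66.0 to 115 in WT (0.84, limma adjusted p = 0.00905). Without the fourth libraries neither passed (limma adjusted p = 0.0834 and 0.0619). Rad23b, whose protein stabilises XPC, was at 247 to 329.9 in NA and 263 to 319.6 in WT libraries (0.01, 95% confidence interval -0.27 to 0.28). The called listed genes of this pathway, Ddb1 and Xpc, thus fell, and the called other genes, Gtf2h3 and Uvssa, rose. This contrast was noticed in the values and not tested.

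Base excision and single-strand break repair included the remaining gene that fell. Parp1 (ENSMUSG00000026496, mm10 chr1:180568924-180601254, plus strand) encodes the main poly(ADP-ribose) polymerase, which binds strand breaks and marks them for repair. Its values were 302, 359, 332 and 343 normalised counts in NA1 to NA4 and 553, 412, 435 and 509 in WT1 to WT4. All WT libraries were above the highest NA library, NA2. The means were 334 ± 23.8 and 477 ± 65.2 (SD, n = 4 each), a ratio of 0.7, with a log2 difference of -0.51 (95% confidence interval -0.76 to -0.25, limma adjusted p = 0.00957). It passed in each of the 8 fits that left out 1 library, but not without the fourth libraries (-0.48, limma adjusted p = 0.102). The difference was -0.68 among the deeper and -0.31 among the shallower libraries, of which NA4 is the only NA library.

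Parp2, the related polymerase that shares part of this role, was at 357 to 404 normalised counts in NA and 326 to 388 in WT libraries (log2 difference 0.07, 95% confidence interval -0.16 to 0.29). The log2 ratio of Parp1 to Parp2 was thus -0.24 to -0.17 in NA and 0.09 to 0.64 in WT libraries. Xrcc1, the scaffold that PARP1 recruits, was at 174 to 232 in NA and 170 to 236 in WT libraries (0.01, 95% confidence interval -0.30 to 0.33). Its sign turned under several alternatives without a call. The glycosylases Ung and Ogg1, which remove uracil and oxidised guanine, were scarce. Ung was at 14.9, 14.1, 23.1 and 18.9 in NA1 to NA4 and 5.33, 11.3, 7.97 and 4.44 in WT1 to WT4, without overlap, on 5 to 25 estimated reads a library (log2 difference 1.23, limma adjusted p = 0.0804). Ogg1 was at 3.40 to 19.5 over all libraries (-0.25, limma adjusted p = 0.807).

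Of the 20 other tested genes of base excision and single-strand break repair, 2 were called higher and 2 lower. Tdp2 frees ends blocked by topoisomerase 2, which cuts both strands, so that its place among these genes is a choice of the listing. Tdp2 was at 446, 511, 351 and 508 normalised counts in NA1 to NA4 and 200, 203, 228 and 225 in WT1 to WT4 (log2 difference 1.07, limma adjusted p = 0.00013) and passed under every alternative run. Neil3, a glycosylase found mainly in dividing cells, was called higher (1.66, limma adjusted p = 0.0457) at 43.2 to 82.7 in NA and 3.40 to 31.9 in WT libraries, and lost the call under 12 of 20 alternatives. Among these were the fits without NA1, NA2, NA3, NA4 or WT4 (limma adjusted p from 0.0532 to 0.142) and without the fourth libraries (0.166), and without WT2 the difference was 0.96 (limma adjusted p = 0.0392). Smug1, another uracil glycosylase, was at 38.3 to 84.6 in NA and 103 to 151 in WT libraries (-0.82, limma adjusted p = 0.0371). It lost the call under 10 of 21 alternatives, among them those without NA1 (-0.56), NA4, WT1, WT3 or WT4 (limma adjusted p from 0.0596 to 0.106) and without the fourth libraries (0.122). Apex1, the main endonuclease of the pathway, was at 13.0 to 25.9 in NA and 36.2 to 47.1 in WT libraries (-1.13, limma adjusted p = 0.025), and lost the call without NA4, WT1 or WT4 (0.0791 to 0.0835) and without the fourth libraries (0.218). Its level is uncertain, because 61.7% of its exon bases lie opposite to exons of Pip4p1, which held 456 to 678 normalised counts in all libraries.

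**Figure D3:**
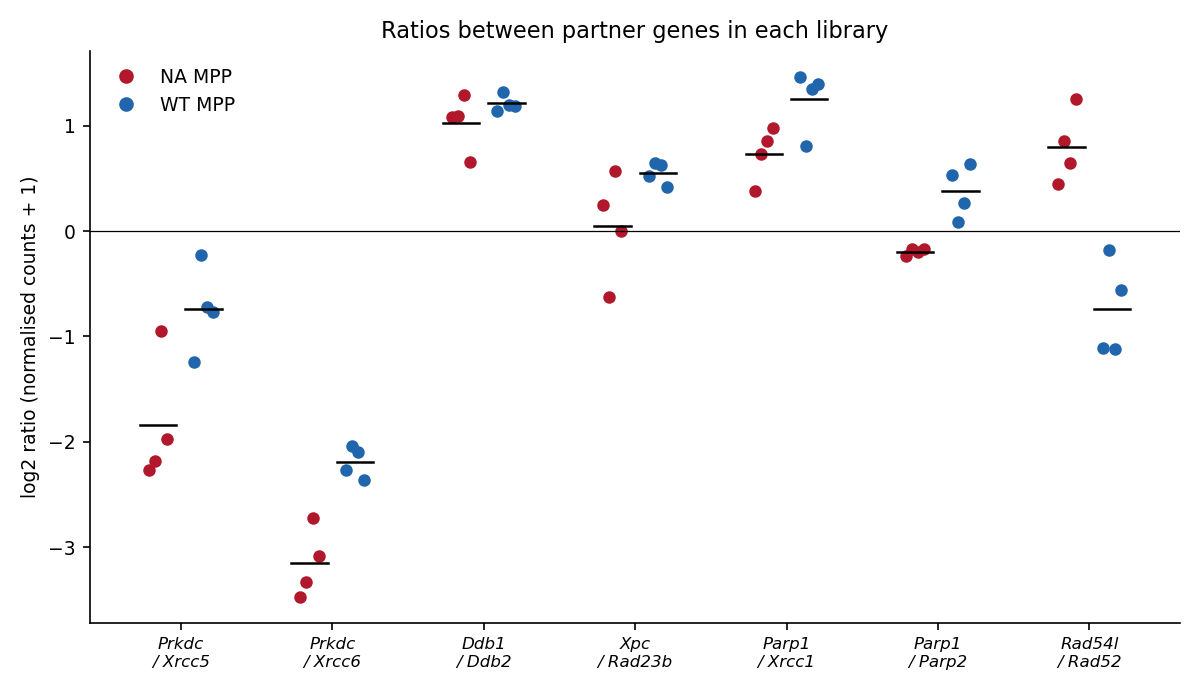
Log2 ratio of normalised counts + 1 (vertical axis) between genes whose products work together or share a role, in each NA (red) and WT (blue) library, with group means as black bars. The ratios of Prkdc to Xrcc6, Parp1 to Parp2 and Rad54l to Rad52 do not overlap between the groups, whereas those of Ddb1 to Ddb2 do. All ratios were chosen after the values were seen, and none passed the exact permutation test after adjustment.

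Promoter sequences are shown for Rad54l, the listed gene that rose, and Parp1, which fell, so that the DNA next to the start of each can be compared. RefSeq (GRCm38.p6) promoters were held for 29 of the 37 genes, and not for Xpc, Ercc3, Rad50, Fancd2, Prkdc, Nbn, Ddb2 and Xrcc2. The 250 bases before the start are given 5′ to 3′ on the gene's strand, with chr4:116123691-116123940 (minus strand) for Rad54l and chr1:180568641-180568890 (plus strand) for Parp1. Capitals mark letters that match the CCAAT box, the GC box (GGGCGG), an E2F core (GGCGGGA), an E box (CACGTG) or a HOX core (TTTAT), searched on both strands.
Rad54l: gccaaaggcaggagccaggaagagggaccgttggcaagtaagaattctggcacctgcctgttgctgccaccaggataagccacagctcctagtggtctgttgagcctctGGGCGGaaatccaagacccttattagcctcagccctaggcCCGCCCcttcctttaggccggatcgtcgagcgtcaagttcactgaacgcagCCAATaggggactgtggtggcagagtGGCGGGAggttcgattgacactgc
Parp1: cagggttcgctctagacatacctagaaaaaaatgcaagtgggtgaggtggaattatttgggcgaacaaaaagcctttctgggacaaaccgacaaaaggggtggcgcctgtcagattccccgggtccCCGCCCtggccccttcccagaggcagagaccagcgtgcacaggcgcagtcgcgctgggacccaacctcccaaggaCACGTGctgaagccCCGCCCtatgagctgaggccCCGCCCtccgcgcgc
Rad54l held 1 CCAAT box 50 bases before the start, 2 GC boxes and 1 E2F core at 24 bases, and the window is shared with the divergent gene Pomgnt1. Parp1 held 3 GC boxes and 1 E box, at 49 bases. In the 27025 RefSeq promoters of this length the letters were found in 34.5% for CCAAT, 32.9% for the GC box, 9.76% for the E2F core, 6.05% for the E box and 38.1% for the HOX core. Among the 29 repair genes they were found in 15, 19, 6, 2 and 3 promoters. Of the other called genes, Ddb1 held 2 GC boxes and 1 E2F core. A match of letters is a description of the sequence and says nothing of binding in these cells.

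The damage signalling kinases gave no call. Atm, which responds to breaks, was at 44.8, 42.3, 26.8 and 46.1 normalised counts in NA1 to NA4 and 25.7, 37.4, 14.8 and 25.7 in WT1 to WT4 (log2 difference 0.64, limma adjusted p = 0.201). Atr, which responds to exposed single strands, was at 157, 181, 102 and 215 in NA1 to NA4 and 196, 264, 173 and 185 in WT1 to WT4 (-0.35, limma adjusted p = 0.271). The groups overlapped for both. The kinases they activate, Chek1 and Chek2, were at 16.99 to 80.8 and 49.8 to 92.2 over all libraries, with log2 differences of 0.59 and -0.13.

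Genes that act around these kinases were called in 4 of 14 tested cases, all lower, where 7.87% of all genes tested were called lower, and are named here after their values were seen. Mdc1, the mediator that binds phosphorylated H2AX, was at 255, 211, 219.7 and 248 normalised counts in NA1 to NA4 and 399, 339.7, 344 and 388 in WT1 to WT4 (log2 difference -0.65, limma adjusted p = 0.00201). Trp53bp1, which steers breaks towards end joining, was at 444 to 506 in NA and 593 to 813 in WT libraries (-0.49, limma adjusted p = 0.00801). H2afx, the histone variant that is phosphorylated around breaks (-0.48, limma adjusted p = 0.0411), and Hus1, a subunit of the clamp that activates ATR (-0.54, limma adjusted p = 0.0384), fell as well. The NA and WT values did not overlap for any of the 4 genes. Mdc1 passed under every alternative run, and Trp53bp1 under all but that without the fourth libraries (limma adjusted p = 0.0526), while H2afx lost the call under 11 and Hus1 under 10 of 21 alternatives. For H2afx these include the fits without NA1, NA2, NA4, WT1, WT2 or WT4 (limma adjusted p from 0.0536 to 0.113) and without the fourth libraries (0.224), and with the GC trend removed its difference was only -0.26 (0.238). For Hus1 they include the fits without NA2, NA3, WT2, WT3 or WT4 (limma adjusted p from 0.062 to 0.101) and without the fourth libraries (0.0904). Trp53bp1 shares 15.04% of its exon bases with Tubgcp4 on the other strand, which had a log2 difference of 0.26 without passing (limma adjusted p = 0.577).

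The MRN complex, which holds and trims broken ends, showed little difference. Rad50 was at 218, 281, 258 and 233 normalised counts in NA1 to NA4 and 220.2, 204, 254 and 194 in WT1 to WT4 (log2 difference 0.18, 95% confidence interval -0.11 to 0.47). Mre11a, the nuclease, was at 85.9, 148, 162 and 164 in NA1 to NA4 and 155, 169, 176 and 159 in WT1 to WT4 (-0.28, 95% confidence interval -0.70 to 0.14), with NA1 below all other libraries. Nbn was at 90.6 to 179 over all libraries (0.13, 95% confidence interval -0.29 to 0.55).

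In the Fanconi anaemia pathway 3 of the 6 listed genes passed the filter and none was called. Fancl, the ubiquitin ligase of the core complex, was at 102, 65.8, 81.2 and 89.8 normalised counts in NA1 to NA4 and 87.0, 49.8, 82.0 and 81.7 in WT1 to WT4 (log2 difference 0.18, limma adjusted p = 0.614). Fancm, the translocase that lands the complex on DNA, was at 53.2, 57.3, 18.5 and 47.2 in NA1 to NA4 and 64.8, 38.5, 39.8 and 52.4 in WT1 to WT4 (-0.23, limma adjusted p = 0.679). Fancc, of the core complex, was at 106 to 156 over all libraries (-0.11). The pair that the ligase modifies was scarce: Fancd2 was at 5.64 to 33.6 in NA and 0 to 26.6 in WT libraries, and Fanci at 8.31 to 24.3 in NA and 2.26 to 7.99 in WT libraries. Fanca was at 0 to 15.9 in NA and 4.53 to 19.4 in WT libraries. Of 9 other genes tested, Usp1, which takes ubiquitin off FANCD2 again, was called higher, at 524, 544, 518 and 633 in NA1 to NA4 and 328, 318, 384 and 317 in WT1 to WT4 (0.72, limma adjusted p = 0.000586), and passed without the fourth libraries (0.0239). Fance, which links the core complex to FANCD2, was called lower (-0.58, limma adjusted p = 0.0352; named after its values were seen) and lost the call under 8 of 21 alternatives. These include the fits without NA1, NA2, NA4, WT1 or WT4 (limma adjusted p from 0.0578 to 0.116), with the GC trend removed (-0.37, 0.167) and without the fourth libraries (0.229).

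Mismatch repair was represented by Msh6, which recognises mispairs, and Pms2, which cuts the strand to be replaced. Msh6 was at 498, 479, 395 and 484 normalised counts in NA1 to NA4 and 529, 360.1, 499 and 493 in WT1 to WT4 (log2 difference -0.01, 95% confidence interval -0.29 to 0.27). Pms2 was at 99.9, 108, 119 and 131 in NA1 to NA4 and 84.3, 136, 121 and 94.1 in WT1 to WT4 (0.09, 95% confidence interval -0.32 to 0.50). Neither these nor the 5 other genes of the pathway were called. Translesion synthesis, in which special polymerases copy past a lesion, had 1 call among 8 tested genes, Polk, at 68.3 to 89.8 in NA and 126 to 153 in WT libraries (-0.77, limma adjusted p = 0.00748), but not without the fourth libraries (0.0675). None of the 3 direct reversal genes was called.

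**Figure D4:**
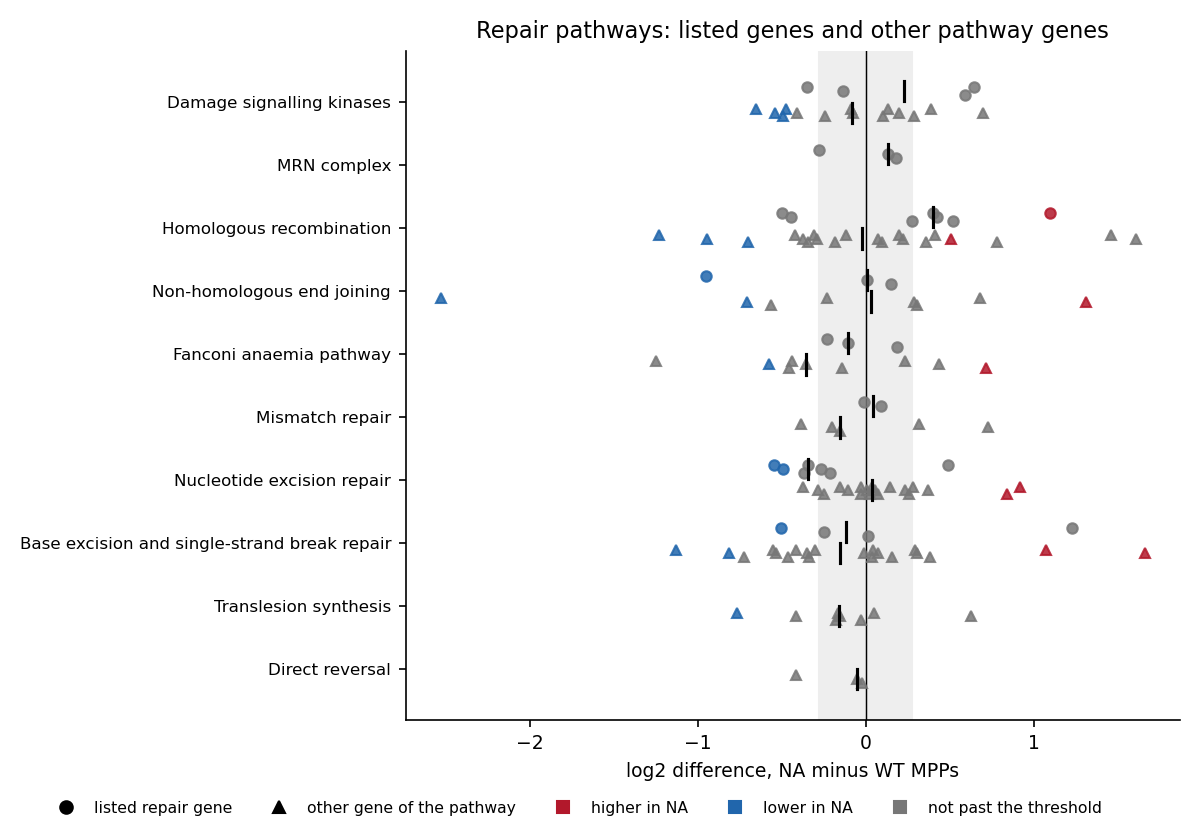
Log2 difference between NA and WT MPPs (horizontal axis) for each tested repair gene by pathway, with listed genes as circles, other genes of the pathway as triangles, medians as black bars and the quartiles of all genes tested as a grey band. Dntt at -2.53 is the farthest point to the left, and the listed nucleotide excision repair genes have a median of -0.35 against 0.04 for the other genes of that pathway.

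Over the 106 tested genes of the wider list, 7 were called higher and 13 lower, against the same background of 17.9% called over all genes. Their median log2 difference was -0.04, and 58 differences were negative. Without the fourth libraries 5 of these 20 were still called, Tdp2 and Usp1 higher and Mdc1, Mus81 and Dntt lower. Of 18 tested p53 target genes, many of which respond to DNA damage, 5 were called higher and 1, Polk, lower, against 10.1% and 7.87% of all genes tested. Gadd45a rose most, from 12.5 to 31.9 in WT to 137 to 168 in NA libraries (log2 difference 2.92, limma adjusted p = 1.41e-05), and Btg2, Plk2 and Plk3, which are also early-response genes, and Trp53inp1 were the others. Cdkn1a was at 65.3 to 348 in NA and 14.2 to 233 in WT libraries (1.27, limma adjusted p = 0.186) and Mdm2 had a log2 difference of -0.19 (limma adjusted p = 0.203). Over all 18 p53 target genes, 10 log2 differences were positive and 8 negative, with a median of 0.12. The part of the early response in these differences was not tested.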

How the data were processed

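RNA of 1000-cell MPP aliquots was reverse transcribed, amplified as cDNA and made into Nextera XT libraries, sequenced on a NextSeq 500 without molecular identifiers. The authors quantified genes with RSEM and normalised with DESeq2, and the submitters' processing notes name bcl2fastq and the build mm10. Annotation, versions and strand use are not given in the sources used here. The deposited values are a normalised signal per gene: in each library 98.6% to 99.0% of values above 0.5 were whole multiples (tolerance 0.1) of a step between 0.888 and 1.18, which gave the estimated reads; amplified cDNA reads are not independent molecules. Fractional values below 1 step remained, so the planned count tests, which were conditional on whole reads, were not run, and the estimated reads served only for depth and for limma's voom weights.

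Values were tested with limma 3.58.1 (R 4.3.3), NA against WT without covariates, on log2(value + 1) with a mean-variance trend, for genes that reached 10 normalised counts in 4 or more libraries, with Benjamini-Hochberg adjustment over all of them and a threshold of 0.05. Fold changes understate those of low genes. The procedure was first tested on simulated data, drawn with the same dispersion for every gene. Of genes given a log2 change of size 1 or 2, 82% and 99% were called, and 5.24% of calls were unchanged genes. The draws lacked the fourth-library pattern and the gene-specific spread of the real libraries, so they do not vouch for the calls made here. Symbols, coordinates and exon overlaps came from GENCODE M21, which is on the same build, and promoters from RefSeq. The listed genes, the wider and context lists and the fourth-library question were chosen with earlier results of these data known. Named were each called member, the highest and lowest difference in each pathway, and of the wider list at most the 8 largest called changes in each direction; others are said to be named after their values were seen. Groups came from the sample titles. Intervals cover the spread between libraries only. Some genes of the wider and marker lists are not reported here by name.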

Additional observations from a re-analysis of the deposited data

Results flagged for a closer look

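Among 88 groups of 4 values (37 genes and 7 partner ratios in both genotypes), 7 had a library far from the other 3 by Dixon's criterion, the gap to the nearest other library divided by the range, where chance gives about 4.4. Xrcc6 was at 561 normalised counts in NA3 against 424 to 438 in the other NA libraries (gap over range 0.895). Ddb2 was at 259 in NA4 against 205 to 209.6 (0.920), the value that makes its groups overlap. Fancd2 was at 33.6 in NA1 against 5.64 to 8.31 (0.905). In WT2, Lig4 was at 1.13 against 7.10 to 7.99 (0.870) and Fancl at 49.8 against 81.7 to 87.0 (0.857). Ercc2 was at 17.8 in WT4 against 29.3 to 30.7 (0.889). The log2 ratio of Parp1 to Xrcc1 was 0.80 in WT2 against 1.35 to 1.46 in the other WT libraries (0.831).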

How the results depend on the processing

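Of 683 fold changes of the 33 listed genes under 21 alternatives, 639 kept their direction and side of the threshold, 17 lost and 4 gained the threshold and 23 changed sign. Without the fourth library of both groups limma called 519 genes in place of 2053, with 0 listed genes higher and 1 lower, and 2 wider genes higher and 3 lower; fewer libraries entered that fit. Leaving out 1 library at a time gave 1130 (without NA4) to 2188 genes, 1271 without WT4, 1 listed gene higher in each fit, 2 to 5 lower (2 without NA2, NA4 or WT3), 6 to 9 wider genes higher and 6 to 16 lower (7 without NA4, 8 without WT1, 6 without WT4), and a listed-gene median from -0.132 to 0.0537. Without a low-value filter 2 listed genes were lower and 1574 genes called. Without a variance trend 2 listed genes were higher (Ung being added) and 1420 genes called. At a mean of at least 50 the listed-gene median was -0.105. No listed gene that was called changed sign. Signs of uncalled genes turned as follows: Xrcc6 and Xrcc1 with scaling by total (-0.0597 and -0.0552), Xrcc1 with depth class as covariate (-0.0116), Xrcc6 with the length trend removed (-0.0084), and Pms2 and Ogg1 without the fourth libraries (-0.0366 and 0.0509). With 1 library left out the ranges were -0.221 to 0.0521 for Chek2, -0.0674 to 0.258 for Nbn, -0.179 to 0.804 for Bard1, -0.0852 to 0.0539 for Xrcc6, -0.182 to 0.00125 for Fancc, -0.397 to 0.131 for Fancm, -0.132 to 0.066 for Msh6, -0.0219 to 0.205 for Pms2, -0.0606 to 0.0964 for Xrcc1 and -0.735 to 0.00568 for Ogg1; the cause was not tested. Scaling by total gave 41.4% of called genes as higher against 56.1%, with 5 listed genes lower, Ddb2 being added. Same-numbered libraries deviated together only weakly (r from 0.0131 to 0.158), where other pairs gave r from -0.0943 to 0.101. Not every library correlated best with its own number, so the numbers were not taken to pair them. With the number as a replicate block 2004 genes were called, with 1 listed gene higher and 4 lower. In that fit 7 wider genes were higher and 9 lower, in place of 13 lower. Hus1, H2afx, Fance and Smug1 lost their calls there (limma adjusted p from 0.0596 to 0.065). The planned edgeR and DESeq2 fits were not run, since the deposited values are not whole counts. Weights from voom and the removal of GC and length trends were chosen after seeing the data. Genes under 50 counts are limited by depth.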
